A study of Mus musculus with 9 samples.

Results

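The 10 integrin genes Itgam, Itgax, Itgal, Itgb2, Itga4, Itgb1, Itgb7, Itgav, Itgb5 and Itga6 were taken by symbol from a table of raw read counts for 23413 genes in mouse liver macrophages. All 10 were found, and all 10 passed the filter on low counts that left 11393 genes for testing. Integrins are surface receptors built of an alpha and a beta chain, and each pair binds its own ligands on other cells or in the matrix. The beta 2 integrins occur on leukocytes only and carry them through firm adhesion to the endothelium and through phagocytosis, whereas alpha 4 with beta 1 or beta 7 binds the vascular and mucosal addressins, and the alpha V and alpha 6 chains bind matrix proteins. Itgam encodes CD11b, whose protein was one of the markers the cells were sorted by, so its presence in these cells is a property of the sort.

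The samples were 9 RNA-seq libraries of polyA RNA from liver macrophages sorted as F4/80+CD11b+, and as Gr1low in the study's methods, each labelled with its own mouse. The ND group held 2 libraries from mice on a normal diet, the HFD vehicle group 3 from mice on a high-fat diet given vehicle, and the HFD DPI group 4 from mice on the same diet given DPI. DPI is diphenyleneiodonium, an inhibitor of flavin enzymes that the study used as an agonist of the receptor GPR3. The mice were male C57BL/6, the diets began at 5 weeks of age and lasted 8 weeks, and DPI was given at 2 mg/kg every 5 days from week 3, in 6 doses. The treatment field of the labels describes 500 nM for 24 h on purified cells instead, and groups were taken from the sample titles. The ND libraries served both comparisons with a high-fat group, and the vehicle libraries served both comparisons they could enter. The study describes 6 mice per group, more than there were libraries.

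Library totals ran from 3534325 to 15585775 counts (median 4918629), and 27.0% to 44.5% of each fell on the ribosomal RNA precursor Rn45s. A count of 3, the smallest taken to differ from none, was worth 0.184 to 1.02 CPM, the counts scaled to a common effective library total, and this floor covers counting error only. Rank correlations between libraries were 0.859 for the ND pair, 0.915 to 0.924 with vehicle and 0.908 to 0.922 with DPI. The general macrophage markers summed to 15200 to 44400 CPM, of which Lyz2, a gene that monocytes and neutrophils share, made up 14000 to 42900 CPM. Csf1r, the receptor of the macrophage growth factor, had 385 to 751 CPM, and Mertk, a receptor of resident macrophages, 1.86 to 15.1 CPM. The labels call the cells Kupffer cells, and the defining markers of that cell type went against the name. Marco had 1 count in 1 library and 0 in the others, Timd4 was at 0 in 5 of 9 libraries, and Clec4f had 0 and 244 counts in ND, 42, 0 and 0 with vehicle and 219, 6, 4 and 6 with DPI. The Kupffer cell list summed to 78.8 to 245 CPM, of which Emr1, the gene of the sorting marker F4/80, made up 55 to 142 CPM, against 3760 to 7960 CPM for the monocyte list and 973 to 5790 CPM for the neutrophil list, whose S100a8 and S100a9 reached 1900 and 2360 CPM. The cells are called sorted liver macrophages here after the sort alone. The monocyte genes Ly6c2 and Plac8 had 441 to 1490 and 1330 to 2240 CPM. Of the macrophage list, Cd68 had 235 to 392, C1qa 19.8 to 124 and Fcgr1 28.9 to 94.1 CPM. The markers thus do not set macrophages apart from monocytes and neutrophils in these libraries. In these bulk libraries, fewer cells of a type and less RNA per cell cannot be told apart.

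Per kilobase of exon, the scale on which genes can be compared, Itgb2 stood above the other 9 members in each library. Itgb2 encodes the beta 2 chain (CD18), and its level was 154 ± 12.3 CPM per kb (SD, n = 9 libraries), higher than 97.7% of the genes tested. Itgb7, the beta 7 chain, followed at 49.4 ± 12.7 CPM per kb, then Itgal at 35.3 ± 13.3, Itgam at 29.0 ± 10.6 and Itga4 at 16.3 ± 6.5. Lower levels per kb belonged to Itgb1 (12.5 ± 3.52), Itgax (7.78 ± 4.03), Itgb5 (4.48 ± 4.27), Itgav (2.34 ± 1.32) and Itga6 (0.319 ± 0.229). Of the neighbours in that order, Itgb2 exceeded Itgb7, Itgam exceeded Itga4 and Itgav exceeded Itga6 in 9 of 9 libraries. Itgb7 was above Itgal, Itgal above Itgam and Itga4 above Itgb1 in 6 of 9 libraries only, so these neighbours did not differ beyond their spread. The same held for Itgb1 and Itgax (7 of 9), Itgax and Itgb5 (8 of 9) and Itgb5 and Itgav (7 of 9). By mean level the leukocyte chains Itgb2, Itgb7, Itgal, Itgam and Itga4 stood above Itgb1, and the leukocyte chain Itgax stood under it. Itgb5, Itgav and Itga6 had the lowest means.

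**Figure D1:**
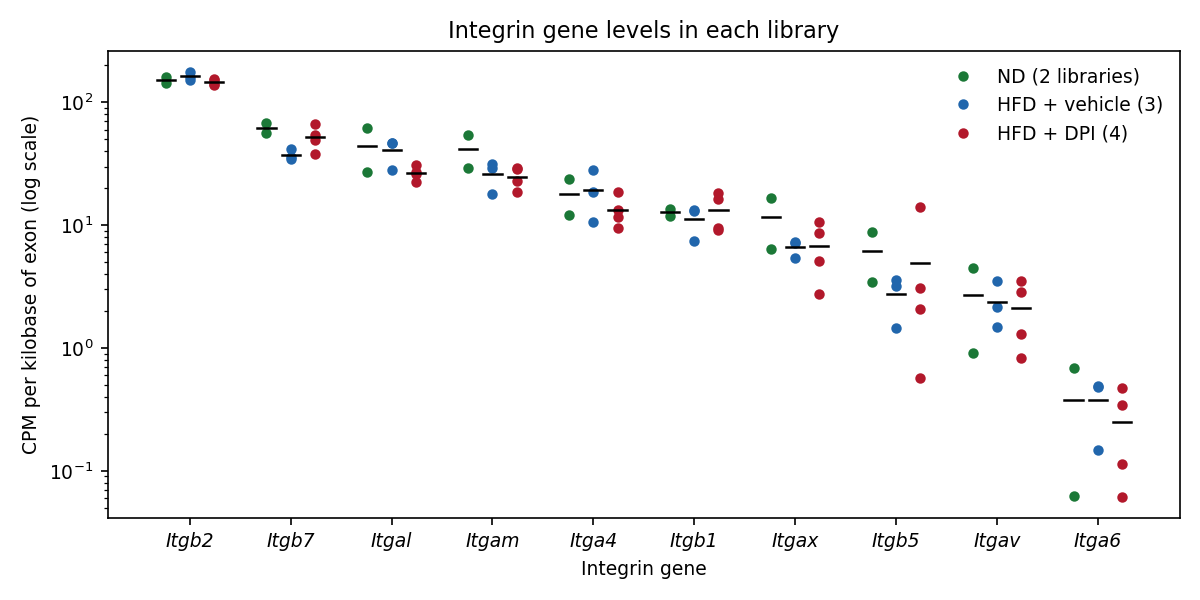
Level of each integrin gene in CPM per kilobase of exon (log scale), with the genes in order of their mean level. Points are libraries coloured by group and black bars are group means; Itgb2 points lie within 138 to 177 CPM per kb, whereas Itgb5 points spread from 0.574 to 14.1 CPM per kb.

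The promoters of Itgam and Itgb7 are shown, the members whose difference between groups had an unadjusted p under 0.05 in the fits described further on. RefSeq promoters (GRCm38.p6) could be matched for 7 of the 10 members, and exon bases were left out. Capitals mark GAGGAA, or TTCCTC on the other strand, the core of the motif bound by PU.1, a transcription factor that governs myeloid genes. The Itgam stretch is the 250 bases before the start at chr7:128062390-128062639 on the plus strand, and the Itgb7 stretch is 241 bases at chr15:102231945-102232185 on the minus strand, both written 5′ to 3′.
Itgam: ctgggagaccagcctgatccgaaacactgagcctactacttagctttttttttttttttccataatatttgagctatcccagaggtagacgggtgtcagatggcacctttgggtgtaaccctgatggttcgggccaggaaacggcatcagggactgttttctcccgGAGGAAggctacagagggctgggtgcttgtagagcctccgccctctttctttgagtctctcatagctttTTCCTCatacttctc
Itgb7: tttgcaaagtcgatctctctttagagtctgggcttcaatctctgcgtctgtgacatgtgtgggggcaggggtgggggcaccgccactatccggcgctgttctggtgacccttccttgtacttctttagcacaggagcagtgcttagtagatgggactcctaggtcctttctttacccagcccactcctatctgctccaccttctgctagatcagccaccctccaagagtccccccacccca
The Itgam stretch held 2 matches, whose first bases lay 84 and 15 bases before the start, and the Itgb7 stretch held 0. Of the other matched members, Itgav held 2 and Itgb1 1, whereas Itga4, Itgax and Itgb5 held 0. Of 32851 promoters in the same table, 7639 (23.3%) held at least 1 match.

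Of the beta 2 family, Itgam (ENSMUSG00000030786.18, chr7:128062640-128118491, plus strand) encodes alpha M, the chain of CD11b/CD18 or Mac-1. Its levels were 271 and 146 CPM in the ND libraries, 148, 90 and 158 CPM with vehicle and 143, 92.7, 115 and 147 CPM with DPI. The first ND library stood above the other 8, and the second ND library lay within the range of the high-fat libraries. Itgal (chr7:127296260-127335138) encodes alpha L of LFA-1, which binds ICAM molecules. Itgal had 404 and 177 CPM in ND, 308, 186 and 309 CPM with vehicle and 147, 179, 205 and 172 CPM with DPI. The first ND library was again highest, and 3 of the 4 DPI libraries lay under each vehicle library. Itgax (chr7:128129547-128150657) encodes alpha X, or CD11c, a chain of dendritic cells and of some macrophages. Its levels were 80.5 and 30.6 CPM in ND, 34.2, 26.1 and 34.9 CPM with vehicle, and 13.3, 50.9, 24.5 and 41.3 CPM with DPI, where the DPI range enclosed the vehicle range. These 3 alpha genes lie close together on chromosome 7.

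Their shared partner Itgb2 (chr10:77530252-77565708) moved far less. Itgb2 had 495 and 440 CPM in ND, 495, 466 and 540 CPM with vehicle and 421, 428, 465 and 473 CPM with DPI, and the groups overlapped in each comparison. Its coefficient of variation over the 9 libraries was 8.02%, against a median of 25.8% for the 861 tested genes with a mean of 100 CPM or more, of which 1 varied less. With scaling by library size only it was 12.8%, and 30 of 866 genes of that level varied less. By contrast Itgal, Itgam and Itga4 varied by 37.6%, 36.7% and 40.0%, above the median of the same class.

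The ratio of alpha to beta transcripts differed between libraries. Per kb, the 3 alpha genes together amounted to 0.464 ± 0.142 of Itgb2 (SD, n = 9), from 0.338 in the second vehicle library to 0.815 in the first ND library. Within that sum Itgal made up 48.8% ± 6.08, Itgam 40.5% ± 6.76 and Itgax 10.7% ± 3.9. The Itgal share was 46.5% and 43.2% in ND, 56.3%, 54.8% and 54.8% with vehicle and 41.6%, 48.4%, 52.7% and 40.8% with DPI. The vehicle libraries thus had the 3 highest Itgal shares of the 9. The Itgam share was 40.8% and 46.6% in ND, 35.2%, 34.7% and 36.7% with vehicle and 53.2%, 32.7%, 38.7% and 45.7% with DPI. Itgam exceeded Itgal in 1 ND and 2 DPI libraries, and by the length of the longest transcript in 1 library only, the first with DPI (ratio 1.09). The Itgax share ran from 5.17% in the first DPI library to 18.8% in the second. These shares are a description, with no test, and do not depend on scaling between libraries.

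**Figure D2:**
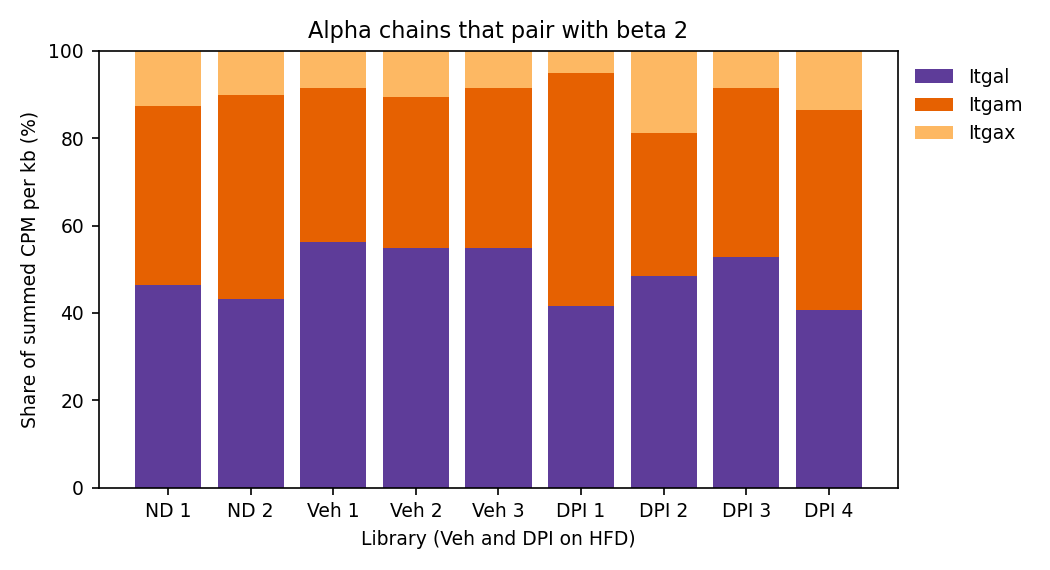
Shares of Itgal, Itgam and Itgax in their summed CPM per kb of exon in each library, in percent; bars are single libraries, Veh and DPI being on the high-fat diet. Itgal makes up 54.8% to 56.3% in the vehicle bars, and 40.8% to 52.7% in the other bars.

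Itga4 (chr2:79255426-79333123) encodes alpha 4, which pairs with beta 1 as VLA-4, a receptor for VCAM-1 and fibronectin, and with beta 7 as the gut-homing receptor for MAdCAM-1. Its levels were 331 and 170 CPM in ND, 397, 148 and 261 CPM with vehicle and 133, 163, 185 and 259 CPM with DPI. Each group spanned a wide range, and the groups overlapped. Itgb7 (ENSMUSG00000001281.10, chr15:102215995-102231944, minus strand) had 155 and 187 CPM in ND, 96.6, 99.4 and 115 CPM with vehicle and 138, 151, 184 and 105 CPM with DPI. All 3 vehicle libraries lay under both ND libraries, and 3 of the 4 DPI libraries lay above each vehicle library. Itgb1 (chr8:128685654-128733200), the most widely shared beta chain, had 48.8 and 54.9 CPM in ND, 54.6, 53.3 and 30.5 CPM with vehicle and 38.6, 37.4, 75.1 and 67.3 CPM with DPI, with overlap in each comparison. Per kb, Itgb7 was 4.2 ± 1.4 times Itgb1 (SD, n = 9), and above it in 9 of 9 libraries, with ratios of 2.29 to 5.95. Itga4 stood at 1.38 ± 0.649 times Itgb1 and 0.362 ± 0.209 times Itgb7.

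The matrix-binding members were low. Itgav (chr2:83724397-83806916), the alpha V chain of receptors for vitronectin and other RGD ligands, had 48.4 and 9.71 CPM in ND, 38.0, 23.0 and 15.9 CPM with vehicle and 13.9, 37.7, 30.8 and 8.88 CPM with DPI. Itgb5 (chr16:33829665-33949338), the beta 5 partner of alpha V, had 31.3 and 12.3 CPM in ND, 12.7, 11.4 and 5.20 CPM with vehicle and 7.36, 49.9, 2.04 and 10.9 CPM with DPI. Its coefficient of variation was 95.4%, larger than that of 98.4% of the 5637 tested genes of its level class. Itga6 (chr2:71745616-71858416), the alpha 6 chain of laminin receptors, was near the limit of detection. It had 34 and 3 counts in ND, 6, 24 and 18 counts with vehicle and 51, 3, 3 and 42 counts with DPI. Itga6 was thus at the 3-count floor in 3 libraries, 1 in ND and 2 with DPI. Its coefficient of variation of 72.0% was under the median of 81.4% of its level class.

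The first comparison set the high-fat diet with vehicle against the normal diet. The study's methods describe injections for the high-fat groups only. Diet and repeated injection therefore cannot be told apart here or with DPI against ND. A gene was called changed where edgeR's quasi-likelihood test gave both a 2-fold difference or more, that is 1 on the log2 scale, and an unadjusted p under 0.05, and 0 of the 10 integrin genes were called with vehicle against ND, where 11.7% of all genes tested were. None had an adjusted p under 0.05 either, which 7 of 11393 genes (0.0614%) had. That count over all genes depended on the test, at 397 by DESeq2 and 280 by the edgeR likelihood ratio test, and was 568 without the second ND library, with 0 integrin genes among them each time. Itgb7 was 1.65-fold lower with vehicle than in ND (log2 -0.72, 95% interval -1.39 to -0.06, unadjusted p = 0.0353 and adjusted p = 0.354, edgeR), and was the 1 member with an unadjusted p under 0.05, a share to read beside 13% of all genes. It was also the 1 member whose groups did not overlap, as was the case for 27.5% of all genes. The log2 fold change of Itgb7 was -0.55 (unadjusted p = 0.189, edgeR) without the second ND library and -0.84 (unadjusted p = 0.0503) without the first. The unadjusted p was also over 0.05 without the first (0.107), the second (0.0688) or the last (0.0591) vehicle library, or the second DPI library (0.0544), which enters through the shared spread. With scaling by library size only it was -1.02 and past the fold threshold, on a scale where the median of all genes lay at -0.26 in place of 0.03.

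Marker lists of other cells moved between the same groups. The 8 sinusoidal endothelial markers, all of which passed the filter, summed to 124 to 229 CPM in ND and 9.43 to 14 CPM with vehicle, where 1 of them was at or under 3 counts in each library. The 8 hepatocyte markers summed to 135 to 242 CPM in ND and 15.6 to 58.4 CPM with vehicle, likewise with 1 of them at or under 3 counts in each vehicle library. The 11 markers of Kupffer cells, 6 of which passed the filter, summed to 146 to 245 CPM in ND and 78.8 to 112 CPM with vehicle. Without Emr1 the groups overlapped, at 7.29 and 130 CPM in ND and 50.8, 27.9 and 23.8 CPM with vehicle. In the other direction, 6 B cell markers summed to 32.1 to 71.7 CPM in ND and 101 to 188 CPM with vehicle. The 8 dendritic cell markers summed to 55.7 to 108 and 195 to 310 CPM, but without Ccr7, which mature dendritic cells and lymphocytes share, the groups overlapped, at 55.7 and 61.4 CPM in ND and 80.8, 33.9 and 54.5 CPM with vehicle. The 7 monocyte markers summed to 4220 to 4260 CPM in ND and 4330 to 5340 CPM with vehicle, but single genes went both ways. Ly6c2 (441 and 609 CPM in ND, 1140, 937 and 1170 with vehicle) and Plac8 rose. Ccr2 (514 and 359 CPM, then 189, 223 and 147) and F13a1 (465 and 427 CPM, then 222, 184 and 256) fell, and the others overlapped. The 7 eosinophil markers summed to 68.2 to 96.3 CPM in ND and 52.8 to 68.1 CPM with vehicle, nearly all of it Ear2. In ND 6 of these were at or under 3 counts in each library, and with vehicle 4 were. The part of these cells in the Itgb7 difference was not tested.

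For the other members, the fitted difference between vehicle and ND was within its error. The log2 fold change was -0.66 for Itgam (95% interval -1.45 to 0.12, unadjusted p = 0.0919, edgeR), -0.81 for Itgax (-1.99 to 0.37) and -1.16 for Itgb5 (-3.24 to 0.92). Itgb2 differed by 0.10, with an interval of -0.43 to 0.63 that lay within the 2-fold limits on both sides. Intervals of Itgal (-0.91 to 0.67) and Itgb7 excluded a 2-fold rise, and Itgal also a 2-fold fall. Itga4, Itgb1 and Itgav differed by 0.10, -0.17 and -0.18, and Itga6, at 0.00, had an interval of -2.93 to 2.93. The sizes rested on the first ND library. Without it Itgam stood at -0.14, Itgax at 0.06, Itgal at 0.60, Itga4 at 0.67 and Itgav at 1.41. Without the second ND library Itgam reached -1.01 (unadjusted p = 0.0273, edgeR) and Itgax -1.32 (unadjusted p = 0.0367), so that these 2 genes were called. Over the 10 members the median log2 fold change was -0.18 and 7 lay under 0, against 0.03 and 48.4% for all genes. That median rested on the ND libraries, being 0.13 without the first and -0.70 without the second.

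The second comparison asked what DPI changed on the high-fat diet. Again 0 of 10 members were called with DPI against vehicle, where 2.84% of all genes were, and the adjusted p of each member was 0.999 by edgeR. At an unadjusted p under 0.05 the count was also 0, against 4.13% of all genes, and the groups of all 10 overlapped, whereas they did not for 5.85% of all genes. No gene of the table had an adjusted p under 0.05 by edgeR's quasi-likelihood test, 2 had by DESeq2 and 1 by the likelihood ratio test. By the first test 470 had an unadjusted p under 0.05, a share (4.13%) no larger than chance alone gives. On counts simulated with a dispersion of 0.423 for every gene, the calling rule found 20.4% of genes changed 2-fold. It also called 443 unchanged genes there, and a member not called may still differ. Itgam had a log2 fold change of -0.08 with a 95% interval of -0.75 to 0.58, and Itgb2 one of -0.16 with -0.61 to 0.28, both within 2-fold limits. The value of Itgam was 0.04 with scaling by library size only, so that its direction is not given. The smallest unadjusted p in the edgeR fit were 0.0685 for Itgal (log2 -0.61, interval -1.27 to 0.05) and 0.0923 for Itgb7 (log2 0.48, interval -0.09 to 1.05). Itgal was 1.52-fold lower and Itgb7 1.39-fold higher in the DPI mean, neither past the threshold. The unadjusted p of Itgal in edgeR fits was 0.0329 with the 2 groups fitted alone, 0.0396 and 0.0387 without the first or the second ND library, and 0.0258 without the second vehicle library, where that of Itga4 was 0.0346. For Itgb7 it was 0.0316 without the last DPI library. Itga4 differed by -0.54 (-1.31 to 0.23), Itgb1 by 0.24 (-0.51 to 1.00), Itgax by 0.03 (-0.98 to 1.03) and Itgav by -0.18 (-1.49 to 1.12). Itgb5, at 0.82 (-0.99 to 2.63), stood at -0.53 without the second DPI library, which had 49.9 CPM. Itga6 differed by -0.56 (-2.99 to 1.88). The median over the members was -0.12 with 6 of 10 under 0, against 0.04 and 46.9% for all genes. It turned to 0.04 without the first vehicle library and to 0.14 with the covariate for long transcripts described further on, and was -0.31 without the second DPI library and -0.23 without the second vehicle library.

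With DPI against ND, 0 of 10 members were called, where 9.29% of all genes were, and 0 had an adjusted p under 0.05, which 1 gene of the table (0.00878%) had. By DESeq2 and the edgeR likelihood ratio test 266 and 186 genes had one, and 572 without the second ND library, again with 0 integrin genes. The groups of all 10 members overlapped, whereas those of 20.2% of all genes did not. Itgam was the 1 member with an unadjusted p under 0.05, as 10.7% of all genes had, and it was 1.67-fold lower with DPI (log2 -0.74, 95% interval -1.48 to -0.01, unadjusted p = 0.0478 and adjusted p = 0.463, edgeR). Its groups overlapped, since the highest DPI library had 147 CPM and the lower ND library 146 CPM. Itgal followed at -0.73 (-1.46 to 0.01, unadjusted p = 0.0529, edgeR) and Itgax at -0.78 (-1.89 to 0.32). The count of members with an unadjusted p under 0.05 was 0 without Rn45s counts, by the likelihood ratio test and in the fit of 2 groups. It was 2 with RLE or library size scaling, without the filter, with 10 counts in every library and by DESeq2. With each library left out in turn the unadjusted p of Itgam in the edgeR fit ran from 0.0142 to 0.608, and without the first ND library its log2 fold change was -0.22. For the same comparison, without the second ND library Itgam, Itgal and Itgax were all called, at -1.09, -1.17 and -1.29. Of the marker lists, the 8 hepatocyte markers summed to 135 to 242 CPM in ND and 35.3 to 80.8 CPM with DPI, where 1 of them was at or under 3 counts in each library, and the 8 dendritic cell markers to 55.7 to 108 and 123 to 411 CPM. The 8 sinusoidal endothelial markers overlapped, at 124 to 229 CPM in ND and 4.27 to 168 CPM with DPI. The T and NK cell list, singled out of 12 lists for its correlation with Itgam (Pearson r = -0.93 over the 9 libraries, as a description), had 14 markers that summed to 138 to 351 CPM in ND and 276 to 576 CPM with DPI, so that the groups overlapped. Its lowest sum, 138 CPM, was in the first ND library and its highest, 576 CPM, in the second DPI library. In the DPI libraries each of those 14 markers exceeded 3 counts at least once, and the part of any of these cells in the Itgam difference was not tested. Itgb2, Itgb1, Itgb7 and Itga4 differed from ND by -0.07 (-0.57 to 0.44), 0.08 (-0.78 to 0.93), -0.24 (-0.88 to 0.39) and -0.44 (-1.30 to 0.43). Itgav, Itgb5 and Itga6 were at -0.36, -0.34 and -0.56 with intervals wider than 2-fold on both sides. The median was -0.40 with 9 of 10 under 0, against 0.04 and 47.9% for all genes. Without the first ND library the median was 0.06, and without the second -0.96.

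**Figure D3:**
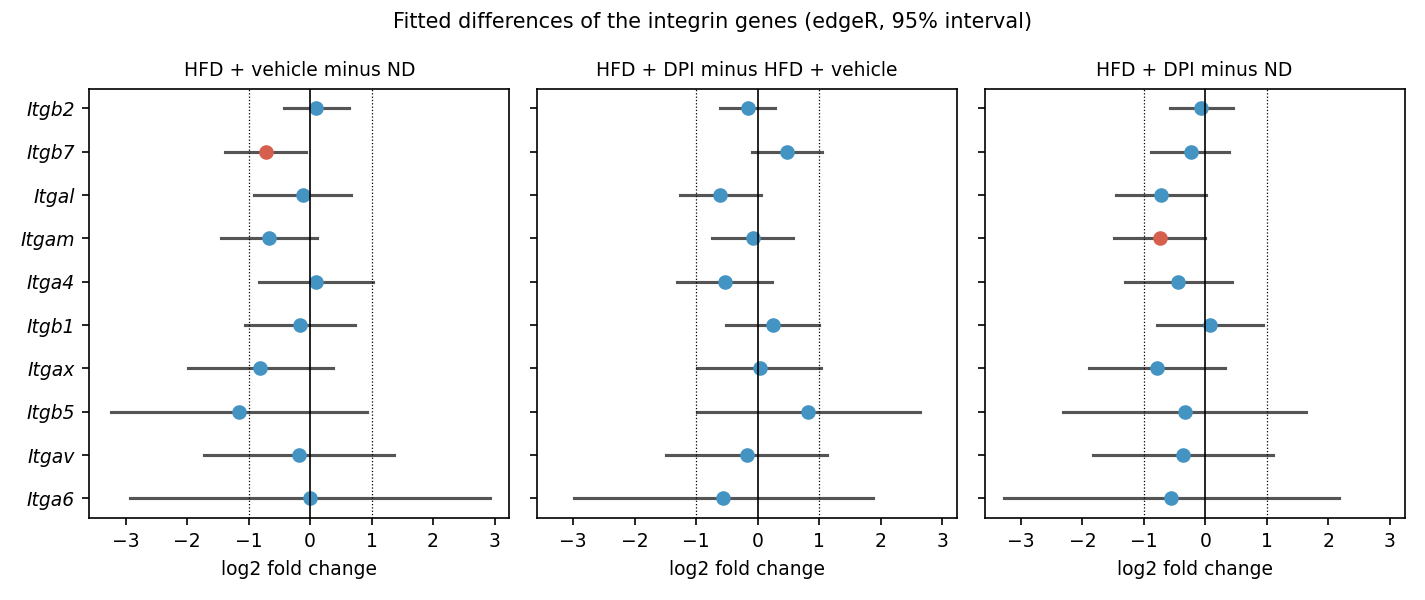
Log2 fold change of each integrin gene in the 3 comparisons, with 95% intervals from the edgeR fit as horizontal lines, zero as a solid line and 2-fold limits as dotted lines. Red points are the 2 with an unadjusted p under 0.05, Itgb7 at -0.72 (vehicle minus ND) and Itgam at -0.74 (DPI minus ND); no point is both red and past a dotted line.

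Several members followed a property that differed between libraries within each group. For each library, the median deviation of log2 CPM of the 2671 genes with the longest transcripts (4732 bases or more) was set against that of the 2672 with the shortest (2143 bases or fewer). The difference was 0.42 and -0.19 in ND, 0.26, -0.18 and 0.29 with vehicle and -0.33, -0.29, -0.16 and 0.27 with DPI, so that each group held libraries on both sides of 0. Itga4, with a longest transcript of 9767 bases, had a Pearson r of 0.92 with it over the 9 libraries, Itgb2 0.85, Itgal 0.81, Itgam 0.72 and Itgax 0.63. Itga6 had 0.53, Itgb1, Itgb5 and Itgav had 0.03, 0.08 and 0.16, and Itgb7 had a negative value (-0.40). The values did not follow the length of the member, since the longest transcript had 2970 bases for Itgb2 and 7054 for Itgav. All 9 libraries share the table and its scaling, and these values are descriptions. Without the first ND library r was 0.91 for Itga4, 0.87 for Itgb2, 0.73 for Itgal, 0.58 for Itgam, 0.44 for Itgax and 0.39 for Itga6. The same step took Itgb7 to -0.63, Itgav to -0.13, Itgb5 to -0.18 and Itgb1 to 0.05.

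With this difference as a covariate in the edgeR fit, Itgal went from -0.61 to -0.26 and Itga4 from -0.54 to -0.06 for DPI against vehicle. For DPI against ND, Itgam went from -0.74 to -0.40 (unadjusted p = 0.201, edgeR). For vehicle against ND, Itgb7 was at -0.71 (unadjusted p = 0.0283, edgeR) and Itgam at -0.65 (unadjusted p = 0.0438), close to their values without the covariate. What produced the difference between libraries was not tested.

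**Figure D4:**
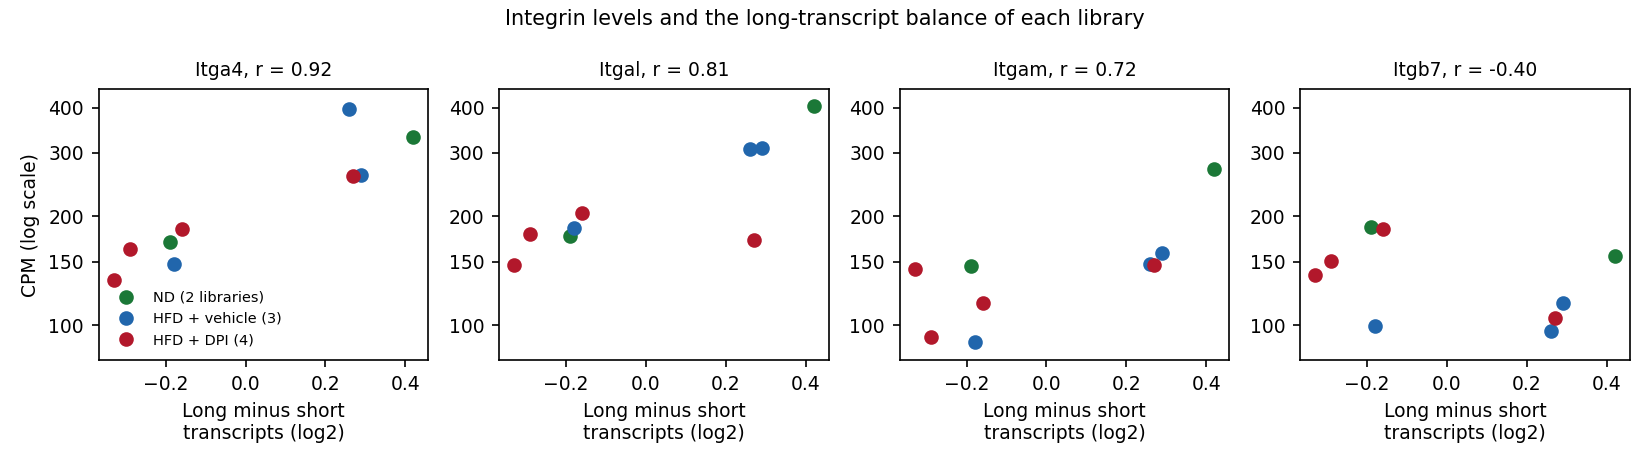
CPM (log scale) of Itga4, Itgal, Itgam and Itgb7 against the difference between long and short transcripts in each library (log2); points are libraries coloured by group and r is Pearson's over the 9. Itga4 rises along the axis at r = 0.92 with libraries of all 3 groups along the trend, and Itgb7 does not (r = -0.40).

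Of the chains that pair in a heterodimer, Itgb2 had r = 0.80 with Itgal, 0.45 with Itgam and 0.40 with Itgax over the 9 libraries. With scaling by library size only, Itgb2 had 0.85 with Itgam, so that this value rests on the scaling. Itgb7 with Itga4 gave -0.35, Itgb1 with Itga4 0.11, Itgb1 with Itga6 -0.32, Itgb1 with Itgav -0.04 and Itgb5 with Itgav 0.33. The pair of members most alike, Itgal and Itga4 (0.83), do not pair with each other. These values share libraries, depth and scaling, and are given with no test.

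Among 4201 genes outside the integrin lists with a mean of at least 20 CPM, the 1 with the highest r over the 9 libraries was found for each member. It was Svil for Itgam (0.965), Nipbl for Itgax (0.929), Akna for Itgal (0.956), Syne1 for Itgb2 (0.955) and Flna for Itga4 (0.964). For the remaining members it was Setd3 for Itgb1 (0.939), Akr1b3 for Itgb7 (0.955), Smc3 for Itgav (0.906), Myo1g for Itgb5 (0.915) and Fndc3b for Itga6 (0.835). With so many genes searched over 9 libraries, values of this size are descriptions.

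Other integrin subunits were sparse. Of 16 listed, 4 passed the filter (Itga1, Itga5, Itga9 and Itgb3), and 0 of these were called in any of the 3 comparisons, where 11.7%, 2.84% and 9.29% of all genes were (vehicle against ND, DPI against vehicle and DPI against ND). Their median log2 fold changes were 0.58, -0.37 and 0.57, against 0.03, 0.04 and 0.04 for all genes. Itga5, the fibronectin receptor chain and the most abundant of them, had 331 and 177 counts in ND, 290, 162 and 251 with vehicle and 658, 75, 387 and 410 with DPI. Itga3 and Itga7 had 0 counts in each library, and Itgad, the remaining alpha chain of beta 2, had at most 6. Itgae, the other partner of Itgb7 (alpha E, CD103), had 0 to 14 counts, which leaves Itga4 as the 1 abundant partner of Itgb7 in the table.

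Genes of integrin activators, adaptors and regulators formed the next list. Of 27 measured, 1 rose and 0 fell with vehicle against ND, 0 were called with DPI against vehicle and 1 rose with DPI against ND. Of all genes tested, 7.03% rose and 4.63% fell with vehicle against ND, 1.5% rose and 1.34% fell with DPI against vehicle, and 6.24% rose and 3.05% fell with DPI against ND. The median log2 fold changes of the list were 0.06, -0.12 and 0.03, against 0.03, 0.04 and 0.04 for all genes. The first was Apbb1ip, which encodes RIAM, a link between Rap1 and talin (log2 1.10, unadjusted p = 0.0359, adjusted p = 0.355, edgeR). It had 21.5 and 30.4 CPM in ND and 82.8, 26.1 and 57.7 CPM with vehicle, and it lost its call without the first ND, the first vehicle or the last vehicle library. The other was Sharpin, known to hold integrins inactive (log2 1.09, unadjusted p = 0.0205, adjusted p = 0.403, edgeR), with 18.4 and 35.3 CPM in ND and 76.5, 52.3, 35.8 and 63.5 CPM with DPI. Its call was lost without the first ND library (0.71) or the first DPI library (0.91). Sharpin was also higher with vehicle against ND, short of 2-fold (log2 0.94, unadjusted p = 0.0475, edgeR), at 55.3, 57.7 and 41.1 CPM. With DPI against vehicle it differed by 0.15.

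Of 19 measured ligands and counter-receptors, 1 rose and 2 fell with vehicle against ND, 1 rose and 1 fell with DPI against vehicle, and 1 rose and 1 fell with DPI against ND. These are 15.8%, 10.5% and 10.5% of the list, where 11.7%, 2.84% and 9.29% of all genes were called, and the difference was not tested. In the same order, 6, 12 and 8 of the 19 had a log2 fold change above 0, against 51.5%, 53.1% and 52.1% of all genes. Spp1, or osteopontin, a secreted ligand of alpha V and alpha 4 integrins, had 2.91 and 8.22 CPM in ND, 37.5, 77.3 and 18.6 CPM with vehicle and 15.4, 21.1, 12.6 and 14.7 CPM with DPI. All vehicle and DPI libraries lay above both ND libraries, and 2 of the 3 vehicle libraries above each DPI library. Spp1 rose with vehicle against ND (log2 3.00 ± 0.70 SE, unadjusted p = 0.000841, adjusted p = 0.131, edgeR). It was lower with DPI than with vehicle (log2 -1.49 ± 0.51 SE, unadjusted p = 0.0117, adjusted p = 0.999, edgeR), and that call was lost without the second vehicle library (-0.82). Against ND it was higher with DPI (log2 1.51 ± 0.64 SE, unadjusted p = 0.0335, adjusted p = 0.438, edgeR), and lost its call without the first ND library (0.96) or the second DPI library (1.39). F11r, the junctional ligand JAM-A of alpha L beta 2, rose with DPI against vehicle (log2 1.25, unadjusted p = 0.0226, adjusted p = 0.999, edgeR), from 13.1, 23.2 and 17.3 CPM to 43.6, 79.8, 28.8 and 19.2 CPM. Leaving out the first or the last vehicle library or the second DPI library ended that call. The endothelial markers summed to 168, 83.6, 4.27 and 29.7 CPM in the same DPI libraries and to 9.43 to 14 CPM with vehicle. The eosinophil markers summed to 159, 176, 30.1 and 103 CPM in those DPI libraries and to 52.8 to 68.1 CPM with vehicle. The part of either list in the F11r difference was not tested.

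Of the ligands that fell, Col4a1, a basement membrane collagen, had 16.8 and 5.42 CPM in ND and 0.444, 0.725 and 0.248 CPM with vehicle (unadjusted p = 0.0095, adjusted p = 0.268, edgeR), and lost its call without the first ND library. The endothelial and hepatocyte marker sums were both lower with vehicle than in ND, as given above, and their part was not tested. Vtn, or vitronectin, a liver-made ligand of alpha V, was the other gene called, with 3 and 28 counts in ND and 0 in the 3 vehicle libraries (unadjusted p = 0.0199, adjusted p = 0.314, edgeR). The first ND library was at the 3-count floor, and without the second the call was lost (unadjusted p = 0.152). Fgb, a fibrinogen chain made by hepatocytes, fell with DPI against ND (log2 -3.07, unadjusted p = 0.0428, adjusted p = 0.454, edgeR), and stood at -0.20 without the second ND library. The hepatocyte marker sum, of which Fgb is 1 of 8 genes, was also lower with DPI than in ND, and its part was not tested.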

How the data were processed

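RNA-seq of 9 sorted mouse liver macrophage libraries was analysed from the raw count table deposited by the authors, which holds whole-number counts per gene without normalization. The labels name TopHat2 and edgeR, and the methods bowtie2 2.2.3 and RSEM 1.2.15, with the mm10 genome; the gene annotation was not given in the sources used here. If counts came from RSEM, they were rounded before deposit. Groups and mouse numbers came from the sample titles, and 2, 3 and 4 libraries entered the groups.

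The members and lists were chosen with earlier results of these data known. Counts were filtered with filterByExpr, scaled by TMM and fitted over the 3 groups with edgeR 4.0.16 (glmQLFit and glmQLFTest, R 4.3.3), with Benjamini-Hochberg adjustment over 11393 genes; the biological coefficient of variation was 0.65. SE was taken as the log2 fold change over the square root of F. The p-values and intervals measure the spread between libraries, whose separate mice rest on the labels. CPM used effective library sizes, and log2 CPM a prior count of 2. Lengths and positions came from GENCODE M21 (GRCm38, the assembly of mm10), and the union of exons gave the kilobases; RNA fragmentation, poly(A) selection and the annotation used in counting can shift levels between genes of unlike length. Totals of 3534325 to 15585775 counts set the precision of low genes, and the 3-count floor covers counting error only, since PCR copies cannot be told apart without molecular identifiers.

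Every member was named. From the other lists, at most 3 genes with the smallest p past the threshold were named per list and comparison, and for each member the 1 most correlated gene. Tried as alternatives were scaling by RLE or by library size, dropping the low-count filter, 10 counts in every library, removal of Rn45s counts, DESeq2 1.42.0, the edgeR likelihood ratio test, fits of 2 groups, no fold threshold, the replicate number as a block, longest transcripts, and each library left out. The long-transcript covariate, shares by longest transcript, correlations and spread under library size scaling, and marker sums without Emr1 or Ccr7 were added after seeing the data. The edgeR test was tested on simulated counts first. Same-numbered libraries of different groups correlated at most at 0.084 in their deviations from the group means, so the numbers were not taken as pairs.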

Additional observations from a re-analysis of the deposited data

Results flagged for a closer look

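Of 29 values examined among the 4 DPI libraries, 2 had a single library far from the others, where chance alone gives about 1 in 20. The summed Kupffer cell markers were 216 CPM in the first DPI library against 109 CPM in the next, a gap of 0.87 of the range and beyond the critical value of Dixon's test; Emr1 made up 142 CPM of it. The summed hepatocyte markers were 80.8 CPM in the second DPI library against 37.8 CPM in the next, a gap of 0.945 of the range. None of the 10 integrin genes passed the critical value among the DPI libraries, and groups of 2 and 3 libraries were not examined. Itgb5 stayed under it, with 49.9 CPM in the second DPI library and 2.04 to 10.9 CPM in the others.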

How the results depend on the processing

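The count of called integrin genes stayed at 0 for DPI against vehicle under all alternatives run. For vehicle against ND it was 1 with scaling by library size only (Itgb7, log2 -1.02), 1 with no fold threshold and 0 to 2 with libraries left out. For DPI against ND it was 1 with no fold threshold and 0 to 3 with libraries left out. Both upper ends came from leaving out the second ND library, which left the ND group with 1 library, assumed to vary like the other groups. Requiring 10 counts in every library, which tests fewer genes, left 726, 202 and 527 called genes of the table in place of 1329 (vehicle against ND), 324 (DPI against vehicle) and 1058 (DPI against ND), and no filter gave 602 for DPI against vehicle. With libraries left out these counts ran from 1027 to 2634, from 187 to 543 and from 830 to 2626, and the cause was not tested.

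With scaling by library size only the median of all genes lay at -0.26 for vehicle against ND, 0.12 for DPI against vehicle and -0.17 for DPI against ND, and 933 of 1472 calls for vehicle against ND were lower, in place of 528 of 1329; for DPI against ND 624 of 1170 were lower, in place of 347 of 1058, and for DPI against vehicle 101 of 297, in place of 153 of 324. Under it Itgam turned to 0.04 (DPI against vehicle), Itgb2 to -0.20, Itga4 to -0.20 and Itga6 to -0.34 (vehicle against ND) and Itgb1 to -0.12 (DPI against ND). RLE scaling and DESeq2 gave -0.03 and -0.04 for Itga6 (vehicle against ND), and a fit of 2 groups -0.01 for Itgax (DPI against vehicle). With the long-transcript covariate Itgam was at 0.24 and Itgav at 0.03 (DPI against vehicle), and Itgb2 at 0.01, Itga4 at 0.02 and Itga6 at 0.28 (DPI against ND).

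With the replicate number as a block, which the labels do not tie to a litter or batch, the count of called integrin genes stayed at 0 in the 3 comparisons. Under the block Itgax was at -0.14 and Itgav at 0.28 (DPI against vehicle), Itgav at 0.05 (vehicle against ND) and Itgb1 at -0.13 and Itgav at 0.33 (DPI against ND), and the unadjusted p of Itgb7 for DPI against vehicle was 0.0376 in that edgeR fit; called genes of the table were 897, 401 and 818. Same-numbered libraries of different groups correlated at -0.022 to 0.084.

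Directions that turned with 1 library left out had these ranges. For vehicle against ND they were -1.32 to 0.06 for Itgax, -0.57 to 0.60 for Itgal, -0.27 to 0.67 for Itga4, -0.28 to 0.11 for Itgb1, -0.89 to 1.41 for Itgav and -0.84 to 2.57 for Itga6. For DPI against vehicle they were -0.30 to 0.06 for Itgam, -0.27 to 0.29 for Itgax, -0.54 to 0.21 for Itgav and -0.53 to 1.19 for Itgb5. For DPI against ND they were -1.29 to 0.08 for Itgax, -0.12 to 0.03 for Itgb2, -0.81 to 0.13 for Itga4, -0.12 to 0.25 for Itgb1, -1.07 to 1.23 for Itgav, -1.63 to 0.49 for Itgb5 and -1.39 to 2.00 for Itga6.

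By longest transcript the level of Itga4 was 23.3 and that of Itga6 0.667 CPM per kb. Under library size scaling r was 0.85 for Itgb2 with Itgam, 0.34 for Itgb1 with Itga4, -0.10 for Itgb1 with Itga6, 0.08 for Itgb1 with Itgav and -0.06 for Itgb7 with Itga4. With 1 library left out r ran from 0.09 to 0.62 for Itgb2 with Itgax, -0.04 to 0.31 for Itgb1 with Itga4, -0.50 to -0.07 for Itgb1 with Itga6, -0.20 to 0.22 for Itgb1 with Itgav, -0.60 to -0.10 for Itgb7 with Itga4 and 0.16 to 0.65 for Itgb5 with Itgav. Depth limits Itga6 most, with 3 counts in 3 libraries.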
